A study of Homo sapiens with 2 samples.

Results

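The RAB small GTPases are the largest branch of the Ras superfamily, and their transcripts were followed through both tables of C-to-U edit sites. Each locus of the deposited isoform models was assigned to the protein-coding gene of GENCODE 44 sharing most exonic bases with it on its strand, and symbols made of RAB and a digit were kept. These were 50 genes, of which 44 were RAB GTPases and 6 were partner proteins such as RAB3IP and RAB3GAP1, which are described with the pathway. Of the 44 GTPase genes, 39 had at least 1 listed edit site among 9194 protein-coding genes with a site in the whole series. The other 5 (RAB26, RAB3D, RAB40A, RAB43 and RAB8B) had isoform models of 1 or 2 isoforms and no site listed at those models. A further 11 RBFOX2 and 13 enzyme-only sites lay within 7 RAB genes at 9 loci without an isoform model, among them 2 enzyme-only sites in RAB8B and 7 sites of each library in RAB4A, and were not counted. There were 32 genes listed in both libraries and 7 listed in 1 library: RAB20, RAB39B, RAB3C and RAB9B in the RBFOX2 library and RAB27A, RAB38 and RAB39A in the enzyme-only library.

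RAB proteins mark membranes. Bound to GTP they recruit effectors that move, tether and fuse vesicles, and each compartment of the secretory and endocytic routes carries its own members. Exchange factors load GTP, GTPase activating proteins drive its hydrolysis, and GDP dissociation inhibitors extract the prenylated protein from the membrane for another round.

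Both libraries came from HEK293T cells, a human embryonic kidney line that the labels enter as HEK293XT, fixed in methanol. The cells then received APOBEC1, a cytidine deaminase, joined to a nanobody that binds rabbit IgG. In 1 library a rabbit antibody brought the fusion to RBFOX2, an RNA-binding protein that recognises UGCAUG (RBFOX2 library, numbered 2 in the labels), and in the other the fusion was applied without it (enzyme-only library, numbered 1). Full-length cDNA was sequenced with PacBio long reads. With 1 library per group, every comparison is between these 2 libraries and has no replicate check, and the intervals given are exact Clopper-Pearson 95% intervals that cover counting error only.

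The GTPase genes had between 12 and 792 reads in the RBFOX2 library (median 160 over the 36 listed genes) and between 4 and 759 in the enzyme-only library (median 155 over 35). Across the 32 genes in both, the median ratio of reads was 1.15 (RBFOX2 over enzyme-only), against 1.11 over all protein-coding loci. The tables list a position when its converted reads exceed 0.002 of the reads of its gene, so a gene with 500 or more reads shows no site with a single converted read. This applied to RAB5C and RAB7A in both libraries and to RAB10 in the RBFOX2 library alone, with 552 reads against 459. Unless stated, counts leave out positions that both tables list. Reads of a whole gene count all its isoforms, so the share of converted reads at a position understates editing where few isoforms contain it.

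The sequences that the results below turn on are given in RNA letters, 5′ to 3′, from hg38. Capitals mark UGCAUG and the cytosines listed as edited in either library, and for RAB1B the cytosine that matches the edited one in RAB1A. The first 3 hold the UGCAUG of RAB11A, RAB10 and RAB40B with RBFOX2 sites beside it, the fourth a UGCAUG of RAB14 with enzyme-only sites, the fifth the shared position with the most converted reads, and the last pair the start of the GTP-binding P-loop in RAB1A and RAB1B.
RAB11A, 3′UTR, chr15:65889355-65889384, plus strand: auugCuaCuuuguauuuuaUGCAUGcuCug
RAB10, 3′UTR, chr2:26136090-26136119, plus strand: ggaagaguuaaCUGCAUGcacuaguguuug
RAB40B, 3′UTR, chr17:82657667-82657696, minus strand: aauuuCuacguggaugUGCAUGaagcucuu
RAB14, 3′UTR, chr9:121181165-121181194, minus strand: auaaauCuCuccUGCAUGguaaaucuagac
RAB1A, 3′UTR, chr2:65088208-65088237, minus strand: uuuccugauaCCagaCuguuuCcCgugguu
RAB1A, P-loop, chr2:65104758-65104787, minus strand: CuuCugauuggCgaCucagggguuggaaag
RAB1B, P-loop, chr11:66271816-66271845, plus strand: cuuuugauuggcgaCucaggcgugggcaag

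Over the family as a whole, the antibody library held about as many sites as the enzyme alone. The 39 genes carried 657 unshared sites with the antibody and 609 with the enzyme alone. Scaled by the library totals of 109357 and 91111 sites, the log2 ratio was -0.15 (-0.32 to 0.01), beside 0.01 (-0.01 to 0.02) over all protein-coding loci. Those loci hold 104606 and 86726 of the sites in the totals, so this scaling sets their value near 0. Scaled by gene reads, the log2 ratio was -0.07 (-0.24 to 0.09) for the family and 0.15 (0.13 to 0.16) over all protein-coding loci. Per 1000 gene reads there were 82.2 and 86.5 sites, both above the 43.8 and 39.5 of all protein-coding loci. In genes with 500 reads or fewer the gap was smaller, 104.9 and 102.9 sites against 91.8 and 81.5. RAB1A alone held 67 of the RBFOX2 sites, and without it the log2 ratio was -0.25 (-0.42 to -0.09).

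**Figure D1:**
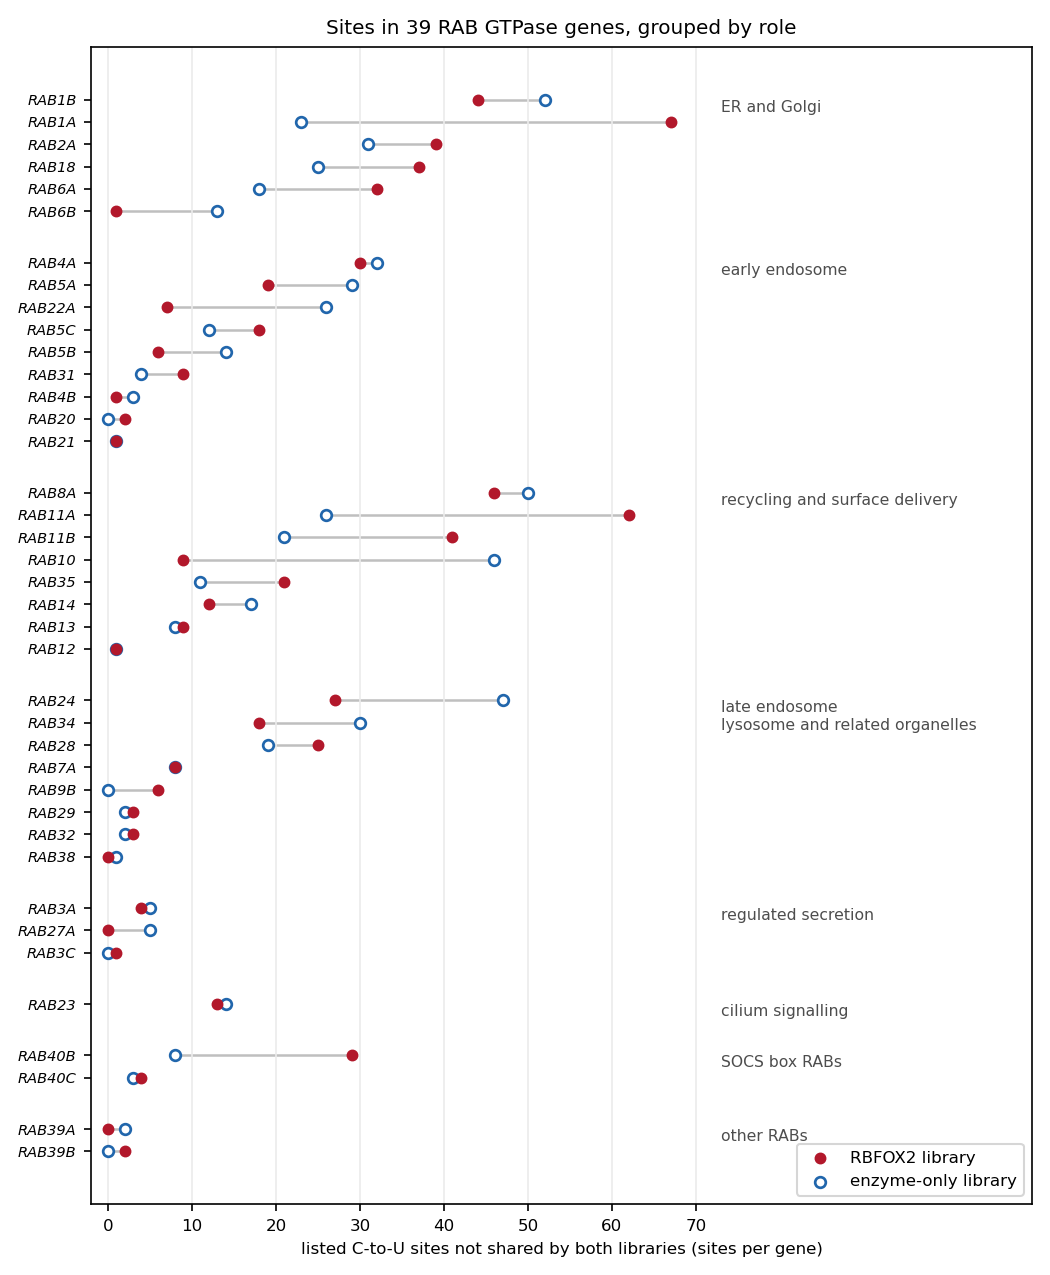
Unshared edit sites (x axis, sites per gene) in each of the 39 RAB GTPase genes (y axis), ordered by role; filled points are the RBFOX2 library and open points the enzyme-only library. RAB1A (67 against 23), RAB11A (62 against 26) and RAB40B (29 against 8) stood to the right with the antibody, and RAB10 (9 against 46), RAB22A (7 against 26) and RAB6B (1 against 13) to the left.

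Single genes differed widely around that value. A log2 ratio was read for the 21 genes whose sites in the 2 libraries summed to at least 20, and its median was -0.35, beside 0.08 over all 3558 loci with as many sites. Of the 21, 2 were above 2-fold (RAB1A and RAB40B) and 4 below 2-fold lower (RAB10, RAB22A, RAB5B and RAB24), where 16.8% and 14.5% of all loci were so. The interval lay above 0 for 3 genes (RAB1A, RAB11A and RAB40B) and below 0 for 5 (RAB10, RAB22A, RAB5B, RAB24 and RAB34), where 15.2% and 14.4% of all loci were so. The 13 others had intervals that included 0. With positions listed in both libraries kept, RAB1A was at 0.81 (0.26 to 1.39) and so no longer above 2-fold.

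**Figure D2:**
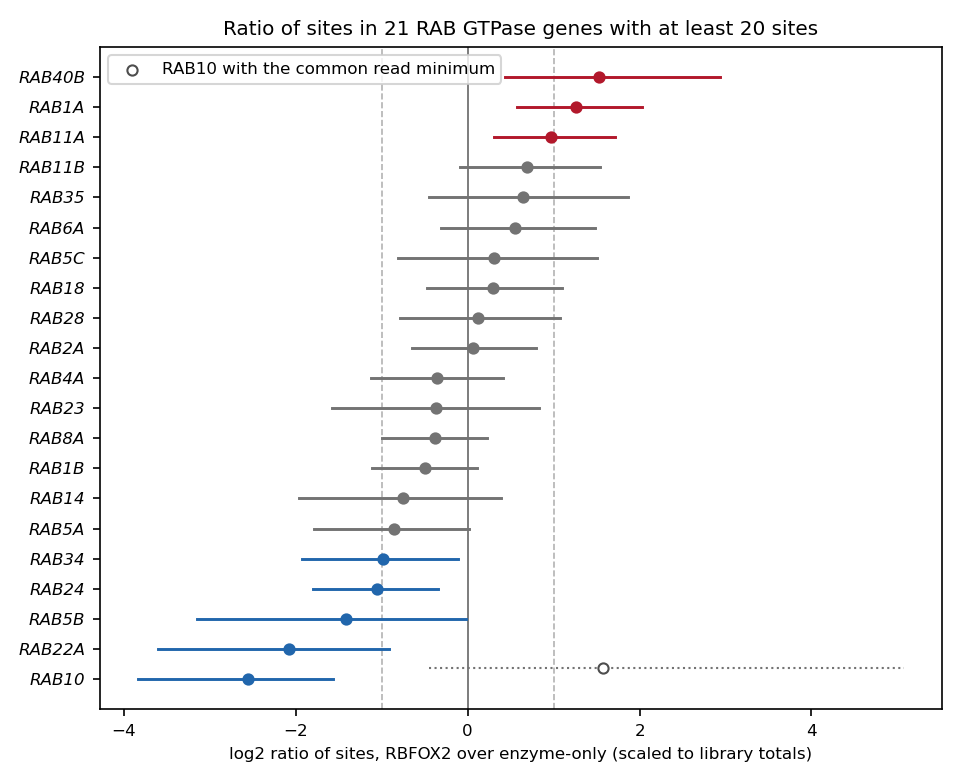
Log2 ratio of sites, RBFOX2 over enzyme-only and scaled to the library totals (x axis), for the 21 RAB GTPase genes with at least 20 sites; bars are exact 95% intervals, red above 0, blue below 0, and dashed lines mark 2-fold. The open point shows that RAB10 moved from -2.55 to 1.58 when both libraries had to meet the same minimum of converted reads.

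The genes of the ER and Golgi held 220 RBFOX2 and 162 enzyme-only sites (log2 ratio 0.18, -0.12 to 0.48). RAB1A (chr2:65070696-65130331, minus strand), which with RAB1B directs transport from the endoplasmic reticulum to the Golgi, had 67 sites on 418 reads in the RBFOX2 library and 23 sites on 342 reads in the enzyme-only library (log2 ratio 1.26, 0.58 to 2.03). The excess lay in coding sequence, with 26 sites against 5, and in the 3′UTR, with 34 against 14. RAB1B (chr11:66268590-66277492, plus strand), a close paralogue, had 44 sites on 497 reads and 52 sites on 496 reads (log2 ratio -0.50, -1.12 to 0.10). The RAB1A over RAB1B odds ratio was 3.42 (1.77 to 6.74).

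The pair could be compared at the same codon. The unshared RBFOX2 site with the most converted reads in the family lay in the P-loop of RAB1A, the stretch that holds the phosphates of GTP. It was the final base of the aspartate codon GAC at codon 19, with 7 of 418 reads (1.67%) in the RBFOX2 library, and it was not listed in the enzyme-only library. The change, D19D, leaves the amino acid as it is. In RAB1B the matching base is in codon 16, also GAC. It was listed in neither library, where 1 converted read would have passed the threshold. Around the RAB1A position, 3 more cytosines of the printed window had 1, 1 and 2 converted reads with the antibody and were not listed for the enzyme alone.

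The remaining members of this group had smaller differences, or few reads. RAB2A, which acts between the endoplasmic reticulum and the Golgi, had 39 sites against 31 (0.06, -0.65 to 0.80). RAB18, found on the endoplasmic reticulum and lipid droplets, had 37 against 25 (0.29, -0.47 to 1.10), on 115 and 90 reads. RAB6A, which returns vesicles from the Golgi, had 32 against 18 (0.55, -0.31 to 1.49). Its paralogue RAB6B had 1 site on 40 reads in the RBFOX2 library and 13 sites on 39 reads in the enzyme-only library. The RAB6A over RAB6B odds ratio was 22.1 (2.89 to 1012), with the upper bound set by that 1 site. The pairs of RAB4 and RAB6 were added to the comparison of paralogues after their values were seen.

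Summed over the genes of the early endosome there were fewer sites with the antibody, 93 against 121 (log2 ratio -0.64, -1.05 to -0.24). Much of that gap lay in RAB22A, and the sum was not recomputed without it. RAB22A, which sorts cargo at the early endosome, had 7 sites on 91 reads and 26 sites on 79 reads (-2.08, -3.60 to -0.91). In coding sequence it had 1 site against 14. The RAB5 proteins drive fusion of early endosomes. RAB5B had 6 sites against 14 (-1.42, -3.15 to -0.02), RAB5A 19 against 29 (-0.86, -1.79 to 0.01) and RAB5C 18 against 12 (0.30, -0.81 to 1.51). The odds ratios of the 3 RAB5 pairs all had intervals that included 1. RAB4A, of the rapid recycling route, had 30 against 32 (-0.35, -1.12 to 0.41). The other members, RAB31, RAB4B, RAB20 and RAB21, had between 1 and 9 sites in a library where they were listed.

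Among the genes of recycling and delivery to the cell surface, 201 RBFOX2 sites stood against 180 (log2 ratio -0.10, -0.40 to 0.19). RAB11A (chr15:65726054-65891989, plus strand), the main RAB of the recycling endosome, had 62 sites on 375 reads with the antibody and 26 on 319 reads without (0.97, 0.31 to 1.71). RAB11B, its paralogue, had 41 on 332 reads and 21 on 307 reads (0.69, -0.09 to 1.53). The RAB11A over RAB11B odds ratio was 1.22 (0.571 to 2.59), an interval that included 1. RAB35, of the endocytic recycling route, had 21 against 11 (0.64, -0.45 to 1.87), RAB8A, which delivers vesicles to the cell surface and the cilium, 46 against 50 (-0.38, -0.99 to 0.22), and RAB14, between Golgi and endosomes, 12 against 17 (-0.75, -1.96 to 0.39). RAB13 had 9 and 8 sites and RAB12 had 1 in each library.

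RAB10 (chr2:26034084-26137454, plus strand), which carries glucose transporters and other cargo to the surface, had 9 sites on 552 reads in the RBFOX2 library and 46 sites on 459 reads in the enzyme-only library (-2.55, -3.83 to -1.57). The 2 numbers were not counted by the same rule. At 552 reads a site needed 2 converted reads, and at 459 reads it needed 1. Asking for 2 converted reads in either library, 9 sites stood against 2 (log2 ratio 1.58, -0.45 to 5.07), so the direction of RAB10 turned with the read minimum. The same rule gave the recycling genes 201 sites against 136 (0.22, -0.10 to 0.54).

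The genes of late endosomes, lysosomes and related organelles together had 90 sites against 109 (log2 ratio -0.54, -0.96 to -0.12). Much of that gap lay in RAB24, and the sum was not recomputed without it. RAB24, linked to autophagy, had 27 sites on 463 reads and 47 on 407 reads (-1.05, -1.80 to -0.35). Its locus also overlaps exons of MXD3, and sites in the overlap cannot be told apart. The same holds for RAB5C, RAB8A, RAB13, RAB40C and RAB4B, whose exons overlap those of other protein-coding genes. RAB34, which positions lysosomes and acts in cilium formation, had 18 against 30 (-0.98, -1.93 to -0.11), with 13 coding sites against 24. RAB28 had 25 against 19 (0.12, -0.79 to 1.07). RAB7A, the main RAB of the late endosome, was the member with the most reads, 792 and 759, and had 8 sites in each library. RAB29 and RAB32, which act at lysosome-related organelles, had 3 against 2 each, and RAB9B and RAB38 were listed in 1 library, with 6 RBFOX2 sites and 1 enzyme-only site.

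RAB40B and RAB40C carry a SOCS box and join cullin ubiquitin ligases. RAB40B (chr17:82654973-82698698, minus strand) had 29 sites on 159 reads in the RBFOX2 library and 8 on 126 reads in the enzyme-only library (log2 ratio 1.53, 0.43 to 2.93), the highest ratio among the 21 genes. In its 3′UTR there were 19 against 2. RAB40C had 4 against 3. RAB23, a regulator of Hedgehog signalling in the cilium, had 13 against 14 (-0.37, -1.58 to 0.83) on 52 and 45 reads. The members of regulated secretion, RAB3A, RAB3C and RAB27A, summed to 5 sites against 10, and RAB39A and RAB39B to 2 in each library, too few to compare. The 18 genes under 20 sites held 55 RBFOX2 and 58 enzyme-only sites in all.

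Sites with several converted reads were more frequent in the antibody library, in this family as over all protein-coding loci. Of the 657 RBFOX2 sites 112 (17.0%, 14.2 to 20.1) had at least 2 converted reads, and of the 609 enzyme-only sites 56 (9.20%, 7.02 to 11.8). Over all protein-coding loci these shares were 14.8% and 9.77%. In the 29 GTPase genes with at most 500 reads in each library they were 12.6% (10.1 to 15.5) and 6.36% (4.44 to 8.77). Over all protein-coding loci of that depth they were 7.29% and 4.42%. At least 3 converted reads were found at 27 sites (4.11%, 2.73 to 5.92) in 10 genes against 4 sites (0.657%, 0.179 to 1.67) in 2 genes, beside 4.92% and 2.03% over all protein-coding loci. Without RAB1A, 17 sites (2.88%, 1.69 to 4.57) stood against 4 (0.683%, 0.186 to 1.74). In the 29 GTPase genes that stayed at or under 500 reads in each library, 22 of 611 RBFOX2 sites (3.60%, 2.27 to 5.40) and 0 of 535 enzyme-only sites reached 3 converted reads, where 3 sites, the limit set here for a count of 0, would be 0.561% and the exact interval ends at 0.687%. Over all protein-coding loci of that depth the shares were 1.21% and 0.302%.

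Sites with at least 2 converted reads lay in 15 of the 39 genes with the antibody and in 18 with the enzyme alone. Over all 9415 protein-coding loci these were 3279 and 2656. RAB1A had 22 RBFOX2 and 2 enzyme-only sites of this kind, RAB5C 18 and 12, and RAB11A 12 and 5. RAB2A had 10 and 4, RAB10 9 and 2, RAB8A 8 and 3, RAB7A 8 and 8, and RAB40B 5 and 0. In RAB22A there were 0 and 3, and in RAB34 0 and 2. RAB5C and RAB7A in both libraries, and RAB10 in the RBFOX2 library, list no site with fewer. Of the 10 RBFOX2 sites with the most converted reads, ties taken by share of reads, 2 were in RAB1A, 2 in RAB10, 2 in RAB40B, 2 in RAB2A and 1 each in RAB11A and RAB5A. The highest enzyme-only sites had 3 converted reads, 2 in RAB5C and 2 in RAB7A, both genes with more than 500 reads in each library. In RAB22A the highest enzyme-only site had 2 of 79 reads (2.53%).

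The binding motif of RBFOX2, UGCAUG, was found on the sense strand 25 times in the exons of 19 GTPase genes, of which 17 were listed. Distances were measured along the genome, so that UGCAUG in an intron counted too. RBFOX2 sites lay within 50 nt of 7 of the 25, enzyme-only sites within 50 nt of 8, and neither within 50 nt of 16. Within that distance were 16 of 655 exonic RBFOX2 sites (2.44%), where all exonic cytosines of the same genes gave 1.79%, a ratio of 1.36 (0.783 to 2.20). In the enzyme-only library they were 15 of 607 (2.47%) against 2.26% of cytosines, a ratio of 1.09 (0.615 to 1.79). Both intervals included 1, and over all protein-coding loci the ratios were 1.53 (1.48 to 1.57) and 0.951 (0.910 to 0.993). Within 200 nt the members gave 76 of 655 sites (11.6%), a ratio of 1.41 (1.12 to 1.74), against 41 of 607 (6.75%), a ratio of 0.735 (0.532 to 0.985). RAB40B took part in that: without RAB11A and RAB40B the ratios were 1.26 (0.947 to 1.64) and 0.768 (0.551 to 1.04). Over all protein-coding loci the ratios within 200 nt were 1.27 (1.25 to 1.29) and 1.04 (1.02 to 1.06).

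Converted reads were also counted at the sites near UGCAUG. Of the 16 RBFOX2 sites 4 had at least 3 converted reads, and of the 15 enzyme-only sites 0 did, where the limit of 3 sites would be 20%. Over all protein-coding loci 464 of 4107 and 29 of 1997 sites near UGCAUG had as many. Elsewhere in exons of the family 23 of 639 RBFOX2 and 4 of 592 enzyme-only sites did. The RBFOX2 sites of this kind near UGCAUG were 3 sites in RAB11A and 1 in RAB10. In the RAB11A 3′UTR, UGCAUG at chr15:65889374-65889379 had 5 RBFOX2 sites around it with 14 converted reads in all, and 1 enzyme-only site with 1 converted read. The 5 lay 29, 15 and 12 nt before the motif, with 3, 1 and 6 converted reads, and 45 and 47 nt after it, with 1 and 3. Of these, the sites at 15 and 12 nt and the enzyme-only site 3 nt after the motif are capitals of the printed window. The site with 6 of 375 reads (1.60%) was second in the family.

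RAB10 had a site directly before UGCAUG at chr2:26136102-26136107, the C of its printed window, with 5 of 552 reads (0.906%). Another RBFOX2 site lay 63 nt after that motif with 4 converted reads, and the enzyme-only library had 1 site within 50 nt, with 2 converted reads. The other UGCAUG of RAB10, at chr2:26135791-26135796, had 0 RBFOX2 and 3 enzyme-only sites around it, each with 1 converted read. RAB40B had 4 RBFOX2 sites and 0 enzyme-only sites within 50 nt of UGCAUG at chr17:82657675-82657680, each with 1 converted read, and 2 RBFOX2 sites 54 and 73 nt after it with 4 and 3 of 159 reads (2.52% and 1.89%).

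Other members had the motif without that pattern. In RAB14, UGCAUG at chr9:121181177-121181182 had 1 RBFOX2 site and 3 enzyme-only sites, and the cytosine inside the motif itself was converted in 2 reads of the enzyme-only library. A motif in the coding sequence of RAB24, at chr5:177302657-177302662, had 1 RBFOX2 site and 4 enzyme-only sites. RAB8A and RAB35 had a UGCAUG with no site of either library within 50 nt. RAB2A had 2 RBFOX2 sites near its motif, 1 of them the stop codon Q25*, and 1 enzyme-only site. RAB1A, with the most RBFOX2 sites of the family, had no exonic UGCAUG at all, and its D19D site lay 156 nt after an intronic one. It held the shorter GCAUG 4 times, RAB11A 3 times, RAB10 6 times and RAB40B 3 times. With GCAUG in place of UGCAUG the ratios over the family were 0.954 (0.728 to 1.22) and 0.982 (0.731 to 1.29). Over all protein-coding loci they were 1.13 and 0.937. Among the 21 genes the median log2 ratio was -0.37 in the 11 with an exonic UGCAUG and 0.21 in the 10 without. The values overlapped widely, from -2.55 (RAB10, counted under unequal read minimums) to 1.53 (RAB40B) with the motif. Without it they ran from -2.08 (RAB22A) to 1.26 (RAB1A). The same split over all loci is not given here.

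**Figure D3:**
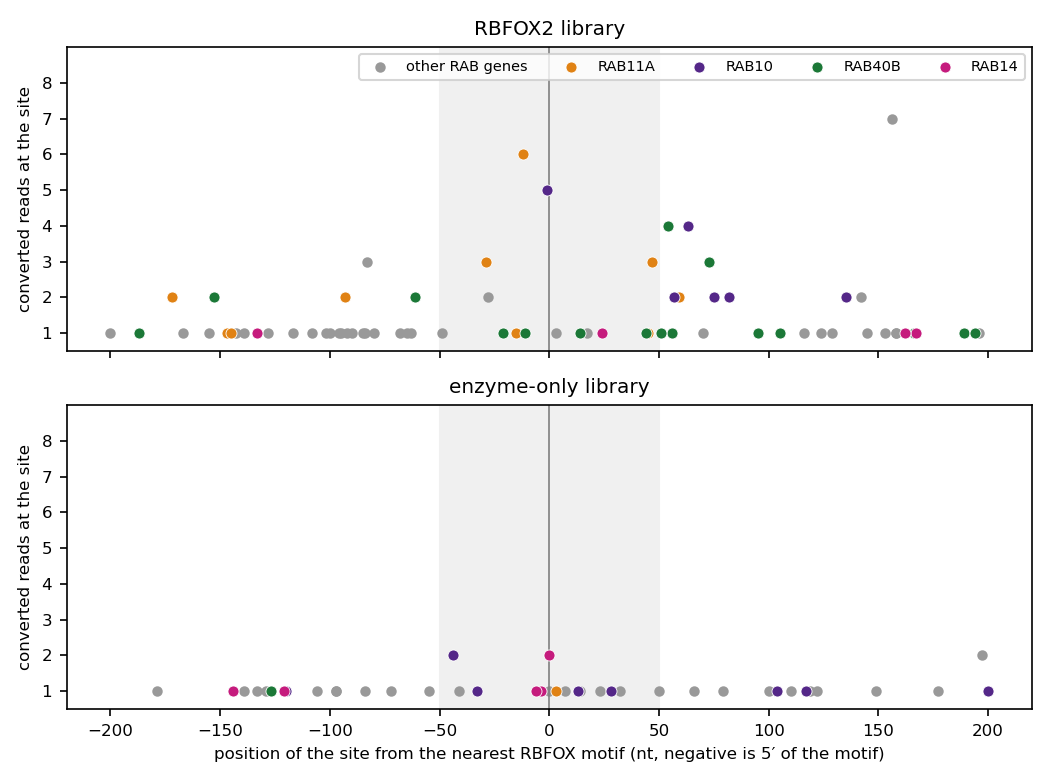
Converted reads at each unshared site of the RAB GTPase genes (y axis) by its distance from the nearest RBFOX motif, up to 200 nt (x axis, negative before the motif), for the RBFOX2 library above and the enzyme-only library below; the grey band is 50 nt on either side. Sites of RAB11A and RAB10 reached 6 and 5 converted reads beside the motif in the RBFOX2 library, the RAB1A site with 7 lay 156 nt after an intronic motif, and no enzyme-only site in the plot had more than 2.

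The position of sites within the 3′UTR differed between RAB1A and RAB11A. In RAB1A, 5 of 8 isoforms ended at chr2:65087880 and the rest ran further. This most frequent end was taken as the proximal end. Up to that proximal end there were 63 RBFOX2 and 18 enzyme-only sites (log2 ratio 1.52, 0.77 to 2.39), and beyond it 4 and 5, on 156 of the exonic cytosines. In RAB11A the earliest end shared by several isoforms, chr15:65888083 with 3 of 9 isoforms, was taken instead. Another isoform ended before it, at chr15:65887922. Up to chr15:65888083 there were 23 RBFOX2 and 21 enzyme-only sites (-0.14, -1.05 to 0.79), with 26 converted reads in each library. Beyond it there were 39 RBFOX2 sites and 5 enzyme-only sites (2.58, 1.36 to 4.40), with 55 and 5 converted reads. The difference in RAB11A lay in the long 3′UTR. How many reads of each library covered it is not given, since reads were counted per gene, and the ends were chosen after the sites were seen.

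**Figure D4:**
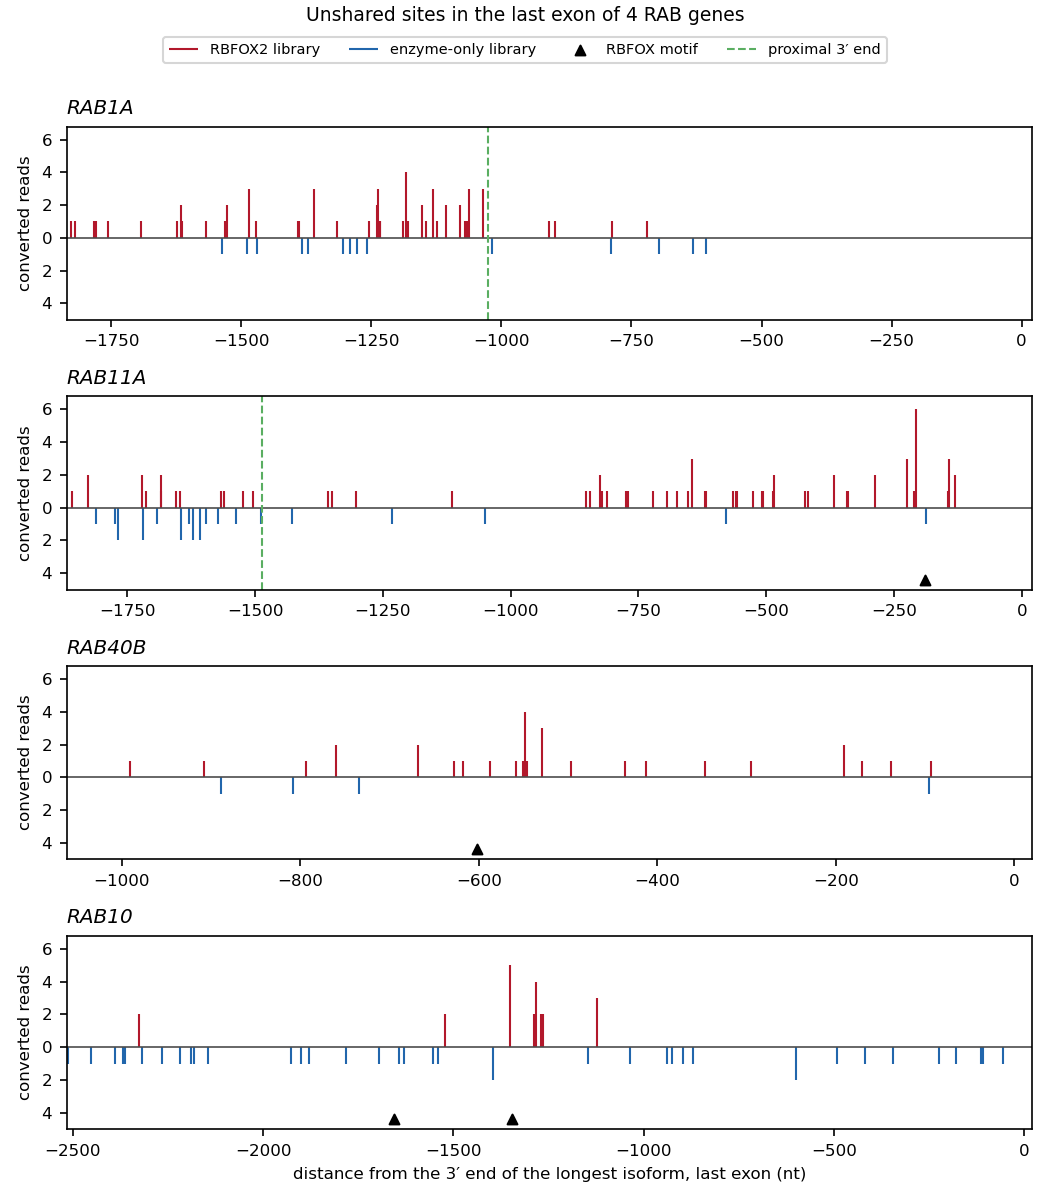
Converted reads at unshared sites along the last exon of RAB1A, RAB11A, RAB40B and RAB10, by distance from the 3′ end of the longest isoform (x axis, nt); RBFOX2 sites point up and enzyme-only sites down, triangles mark RBFOX motifs and dashed lines the proximal 3′ end. RBFOX2 sites of RAB1A gathered before the proximal end, and those of RAB11A lay mostly beyond it. RAB10 shows 5 RBFOX2 sites with 15 converted reads in all over a stretch of 100 nt that begins at the motif.

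The sequence context and the region of the sites were also compared. APOBEC1 is known to edit best after A or U. With the antibody 73.6% (70.0 to 76.9) of the edited cytosines followed A or U and with the enzyme alone 66.6% (62.6 to 70.3), against 47.4% and 46.5% of exonic cytosines. Over all protein-coding loci the shares were 71.8% and 63.9%. Among sites with at least 2 converted reads the family had 91.1% (84.2 to 95.6) with the antibody and 66.1% (52.2 to 78.2) without, beside 88.3% and 77.9% over all loci. In the 3′UTR lay 60.9% (57.0 to 64.6) and 57.5% (53.4 to 61.4) of sites, beside 42.3% and 36.1% over all protein-coding loci. The exonic cytosines of the RAB genes were also more often in the 3′UTR, 49.6% and 48.8% against 28.8% and 28.1%. Across the 21 genes the log2 ratio hardly followed the share of cytosines after A or U (Pearson r 0.05, Spearman rho 0.10, across genes that share both libraries).

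In the annotated reading frame of 1 transcript per gene, 191 RBFOX2 sites were coding: 93 synonymous, 81 amino acid changes and 17 stop codons. The enzyme-only library had 186: 90, 80 and 16. Stop codons made up 8.90% (5.27 to 13.9) and 8.6% (5.0 to 13.6), where all coding cytosines of the same genes would give 8.16% and 7.76%. Codons of the GTP-binding motifs (P-loop, switch II and the guanine contact) held 14 of the 191 (7.33%, 4.07 to 12) and 19 of the 186 (10.2%, 6.26 to 15.5), beside 6.47% and 6.21% of coding cytosines. Apart from D19D of RAB1A each of these sites had 1 converted read. Examples from the enzyme-only library were Q67* in RAB18 and Q70* in RAB11B, which fall on the glutamine of switch II that takes part in GTP hydrolysis, and from the RBFOX2 library S27F in RAB4A, in the P-loop.

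EditsC, here the unshared listed cytosines within the exons of an isoform over all its exonic cytosines, was computed for 353 isoforms of the 39 genes. Sites were listed per gene, so each was counted for every isoform whose exons contain it. No reads were assigned to isoforms here. Differences between isoforms of a gene therefore show which positions each model includes, not editing measured on that isoform. The median was 3.74% with the antibody and 3.97% without, beside 2.11% and 1.71% over all protein-coding genes. Taking for each gene a single isoform, chosen for its number of exonic cytosines, the family medians were 2.18% and 2.14%. With positions listed in both libraries kept, the medians of the 353 isoforms were 4.25% and 4.82%. The antibody library had the higher value in 166 isoforms (47.0%) and the lower in 166. Over all protein-coding genes it was higher in 60169 of 105937 isoforms (56.8%) and lower in 38071. RAB1A spanned the widest range, from 13.7% to 26.5% over its 8 isoforms with the antibody, and from 4.56% to 7.07% with the enzyme alone. The lowest values belonged to isoforms with the long 3′UTR. RAB11A spanned 10.8% to 17.2% over 9 isoforms, here with the higher values in isoforms with the long 3′UTR. With the enzyme alone it spanned 5.88% to 13.7%, and the highest value was in an isoform with the short 3′UTR. RAB28 spanned 2.64% to 10.4% over 11 isoforms, and the lowest was the 1 isoform with another 3′ end, which was also the lowest with the enzyme alone, where the range was 0.990% to 8.06%. Isoforms of a gene share most of their exons and sites, so they are not independent.

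**Figure D5:**
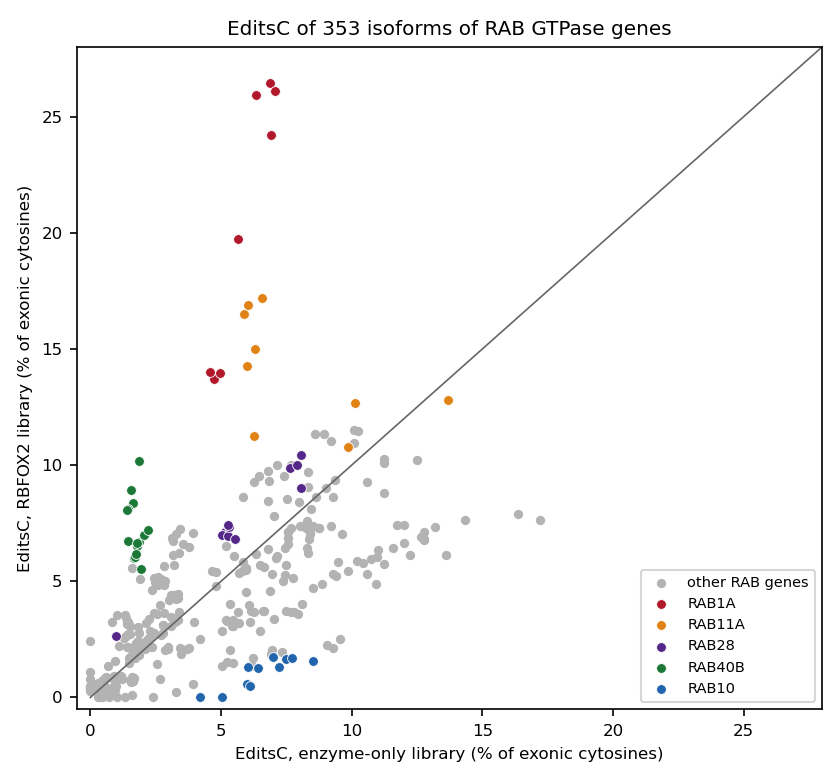
EditsC (% of exonic cytosines) of 353 isoforms of RAB GTPase genes, enzyme-only library on the x axis and RBFOX2 library on the y axis, with the line of equal values. The 8 isoforms of RAB1A were at 13.7% or more with the antibody and at 7.07% or less without, and those of RAB10 lay below the line, where the RBFOX2 library needed 2 converted reads per site.

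Positions listed in both libraries numbered 108 in 19 of the GTPase genes, which was 14.1% (11.7 to 16.8) of what the RBFOX2 library listed there and 15.1% (12.5 to 17.9) for the enzyme alone, beside 10.5% and 12.4% over all protein-coding loci. The share of converted reads was higher with the antibody at 32 of them and higher with the enzyme alone at 76. The RBFOX2 library had more reads in 26 of the 32 genes listed in both, so that 1 converted read was a smaller share there. In 1 of the 108 the interval of the RBFOX2 library lay above that of the enzyme-only library, at chr2:65088222 in the RAB1A 3′UTR, where this held for 0.18% of 12245 shared positions over all protein-coding loci. The reverse held at 0 of the 108, beside 0.0327% of those positions. RAB1A held 18 of the 108 shared positions.

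The proteins that control the RAB cycle were counted from a list of 129 genes, of which 98 had a site and 26 had at least 20 sites. Of these 26, 6 were above 2-fold and 3 below 2-fold lower (median log2 ratio -0.26), beside 16.8%, 14.5% and a median of 0.08 over all loci with as many sites. The exchange factors gave 233 RBFOX2 and 138 enzyme-only sites, with DENND5A (24 against 1) and RAB3IP (22 against 6), the exchange factor of RAB8, above 2-fold among 8. The GTPase activating proteins gave 231 and 154, with TBC1D2B (35 against 10), TBC1D7 (39 against 13), RAB3GAP1 (16 against 5) and TBC1D20 (15 against 5) above 2-fold among 8 and TBC1D15 (10 against 21) below. The intervals of RAB3GAP1 (1.32, -0.10 to 3.22) and TBC1D20 (1.23, -0.21 to 3.14) included 0. GDP dissociation inhibitors and prenylation factors, a group in which the list also placed RABIF and RABAC1, gave 58 and 130 sites. RABIF had 8 against 16 (-1.22, -2.70 to 0.04). GDI2 had 7 against 46 (-2.90, -4.37 to -1.82), but it had 500 and 446 reads, and under 1 read minimum for both libraries the counts were 7 against 4 (0.39, -1.51 to 2.68). Effectors gave 169 and 144 sites, with none of 7 beyond 2-fold. Of the RAB11 partners, RAB11FIP5 had 5 against 0 and RAB11FIP4 2 against 1, while RAB3IL1 and RAB3GAP2 had models and no listed site.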

How the data were processed

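C-to-U edit sites were taken from 1 RBFOX2 and 1 enzyme-only library of HEK293T cells. In the study's methods, full-length PacBio reads were aligned to hg38 with pbmm2, and edits were called with the authors' own code. The methods and the labels name different PacBio kits, so some of these steps may describe another run. The deposited tables give for each position the count of converted reads, the count of reads of the whole gene, the edit fraction (the first count over the second, as the authors computed it, listed only above 0.002) and a confidence score from the authors, which was not used. The series' isoform models were used for positions only.

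Each locus was assigned to the GENCODE 44 protein-coding gene with the largest exonic overlap on its strand. A site was a position and strand, and comparisons left out positions that both tables list. The log2 ratio of a gene was taken on sites plus 0.5, scaled to all unshared sites of each library, and its interval came from the exact binomial interval of the RBFOX2 share. An expected share was the mean, over sites, of that share among the exonic cytosines of the gene a site lies in. Genes of 20 or more sites, genes with sites near UGCAUG, genes of the sites with the most converted reads, paralogues and RAB7A were named with values, and smaller genes were added to account for the family. The members and lists were chosen with earlier results of these data known. The thresholds of 3 converted reads, the proximal 3′ ends and the P-loop comparison were chosen after values were seen.

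Positions where depth was at or above 500 reads needed 2 converted reads to be listed. Alternatives kept shared sites, required 2 converted reads, applied 1 read minimum to both libraries, changed the window, the pseudocount and the minimum of sites, and left out genes. Leaving out RAB1A, RAB10, RAB11A or RAB40B and the read minimum by role were added after seeing the data. Calculations used Python 3.11.15, pandas 2.3.3, numpy 2.4.6, scipy 1.17.1, pysam 0.24.0 and samtools 1.23.1, and were tested on simulated data.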

Additional observations from a re-analysis of the deposited data

Results flagged for a closer look

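A position of the RAB1A 3′UTR, chr2:65088222 on the minus strand, drew attention among the positions listed in both libraries, which the comparisons above left out. It is the capital C after aga in the fifth printed window. In the RBFOX2 library 24 of 418 reads were converted (5.74%, 3.71 to 8.42), and in the enzyme-only library 4 of 342 (1.17%, 0.320 to 2.97), a ratio of 4.91. An interval in the RBFOX2 library above that of the enzyme-only library was found at 22 of 12245 shared positions over all protein-coding loci (0.18%). The median over the 108 shared positions of the family was 0.324% and 0.330%. The neighbour at chr2:65088227 had 4 and 3 converted reads. The difference was not tested across replicates, since each group had 1 library.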

How the results depend on the processing

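No paired analysis was possible because each group had a single library. Of 142 values recomputed under another setting, 115 moved by less than their interval or by less than 1.5 times and 25 moved further. The other 2 turned the direction of RAB10, whose interval had excluded 0. Its log2 ratio of -2.55 was 1.58 with 1 read minimum for both libraries and 1.06 with at least 2 converted reads. In the other single genes recomputed, 1 read minimum changed no count of sites. Their log2 ratios could move only with the library totals, and they are among the 115. With at least 2 converted reads the family had 112 and 56 sites (log2 ratio 0.14, -0.34 to 0.63), RAB8A had a log2 ratio of 0.42, RAB28 -0.86 and RAB5C -0.30, the ratio of sites near UGCAUG was 2.68 (0.880 to 6.08) and 2.61 (0.319 to 9.01), the 3′UTR held 73.2% and 69.6%, A or U came before 91.1% of RBFOX2 sites, and 36% of RBFOX2 coding sites were synonymous and 16% stop codons, from 25 coding sites. In 7 further cases a log2 ratio whose interval included 0 took the other sign: those of the family, RAB8A, RAB28 and RAB5C just given, the recycling genes with 1 read minimum (0.22), and RAB2A with 1 read minimum (-0.02) and with shared sites kept (-0.0048). Without RAB1A and RAB11A the log2 ratio of the family was -0.35, and without RAB10 it was -0.06. Genes above 2-fold numbered 1 with shared sites kept (22 genes counted). In that setting RAB1A had a log2 ratio of 0.81 (0.26 to 1.39) and RAB11A 0.65 (0.10 to 1.24). With at least 50 sites (11 genes counted) 1 was above and 2 were below. With 3′UTR taken before coding sequence, 66.7% of sites were in the 3′UTR in each library. With 1 isoform per gene the median EditsC was 2.18% and 2.14%. The cause of these shifts was not tested, except that RAB10 had 552 and 459 reads on either side of the depth at which 2 converted reads are needed. Depth limits the precision of single sites, of which 17.0% and 9.20% had more than 1 converted read.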
